A study of Homo sapiens with 2 samples.

Results

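Genes of 10 secreted inflammatory proteins outside the CXC chemokine cluster were examined in SK-MEL-2 cultures with and without the kinase inhibitor JNJ-7706621. They comprise the interleukin genes IL1A, IL1B, IL6 and IL32, the colony-stimulating factor genes CSF2 and CSF3, the CC chemokine genes CCL2 and CCL20, the leukaemia inhibitory factor gene LIF and the tumour necrosis factor gene TNF. They were chosen by name from the 60527 genes of the table, with the values of this same comparison already known, so every difference given for them is a description and not a test. All 10 had an entry.

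Cytokines are secreted proteins that carry signals between cells at low concentrations. IL1A, IL1B and TNF bind receptors that activate NF-kB and MAP kinases, and these in turn switch on genes for further cytokines, chemokines and growth factors of white blood cells. Many cytokine mRNAs have a short life because AU-rich elements in the 3′ untranslated region recruit decay factors. AUF1, the product of HNRNPD and the subject of the series title, is among the proteins that bind such elements. Epithelial and tumour cells, and not only immune cells, can make most of these factors.

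RNA was sequenced from 1 culture given DMSO, the solvent, and 1 culture given 1.75 µM JNJ-7706621, a known inhibitor of cyclin-dependent and Aurora kinases, each for 48 h. SK-MEL-2 is an established human melanoma line, and both cultures are labelled as that line. Library totals recovered from the values were 23377161 and 22817719 reads. The table holds 2 further value columns, named like these groups with the number 2, which match no sample label used here and were not analysed here. They may be second libraries of the same groups. With the 1 library per group analysed, no spread between cultures is given and no test was run. Intervals given in parentheses are 95% counting intervals and cover counting error only.

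The lineage markers mostly went against the melanoma label, and the reason was not tested. Of 8 melanocyte markers, SOX10 and DCT had 1 read each in DMSO and 0 in JNJ-7706621, and TYR had 0 in both. TYRP1 had 5 reads with DMSO and 7 with JNJ-7706621, and MLANA had 14 and 13. MITF stood at 2.65 and 2.27 FPKM, PMEL at 2.00 and 3.71 FPKM and MC1R at 1.56 and 0.772 FPKM, and these carried nearly all of the list sum of 6.48 and 7.02 FPKM (fragments per 1000 bases of exon per 1000000 reads). The 6 epithelial markers summed to 2267 and 2269 FPKM. KRT18 stood at 1117 and 1123 FPKM, KRT8 at 720 and 703 FPKM and KRT7 at 305 and 289 FPKM. EPCAM stood at 55.7 and 59.4 FPKM, CDH1 at 49.8 and 67.8 FPKM and KRT19 at 19.2 and 26.7 FPKM. Markers of cells that could bring cytokine mRNA from outside were low. The 8 macrophage and monocyte markers summed to 0.867 FPKM with DMSO and 1.65 FPKM with JNJ-7706621, most of it CD14 at 0.675 and 1.25 FPKM, and PTPRC, CD163 and AIF1 were at 0 in both. The 7 lymphocyte markers summed to 0.0275 and 0.228 FPKM, with CD3E, CD4, MS4A1 and NKG7 at 0 in both. The 8 fibroblast and endothelial markers summed to 0.263 and 0.726 FPKM, with COL1A2 at 0 in both. The part of these cells in the differences below was not tested.

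Of the 10 genes, 8 had a higher level in the JNJ-7706621 library by a factor of more than 2, LIF was nearly level and CSF2 had no reads. The ratio intervals of these 8 also lay wholly above 2, which held for 3.43% of 15756 protein-coding genes with reads. The genes were chosen with this contrast known, so nothing is read from the count. The factor ran from 4.76 for CCL20, on 105 DMSO reads, to 23.3 for IL1B, on 4. Support was low in DMSO, where IL1B, IL6 and TNF rested on 4, 3 and 4 reads. In a bulk culture, more cells that make a factor and more mRNA per cell cannot be told apart. The plot of levels shows both libraries for each gene.

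**Figure D1:**
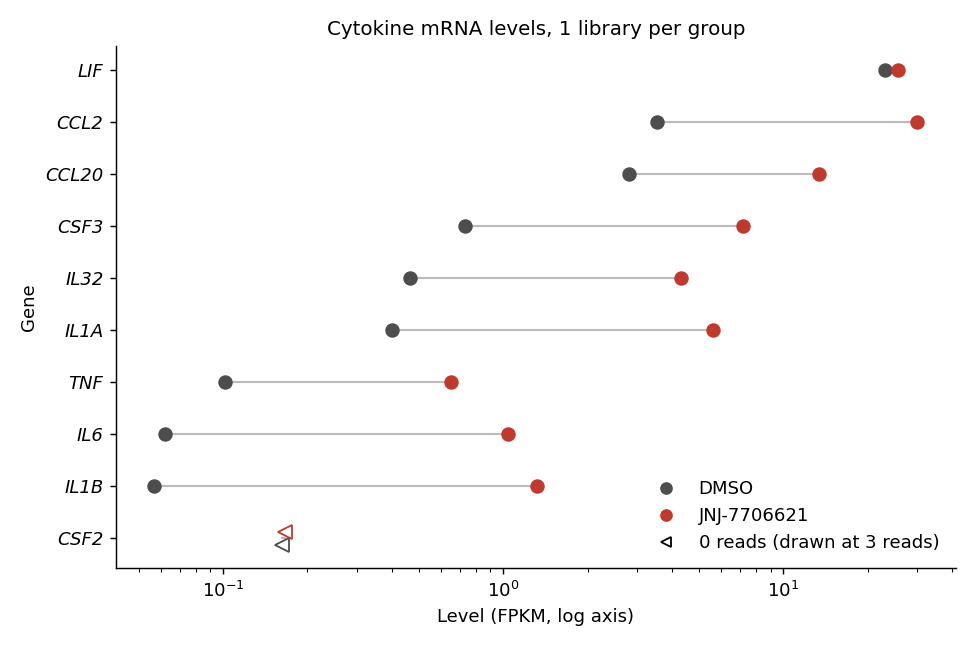
Level of each gene in FPKM (log axis) in the DMSO library (grey) and the JNJ-7706621 library (red), 1 library per group, genes ordered by their DMSO level. LIF points lie close together at 23.0 and 25.6 FPKM, CSF2 has 0 reads in both and is drawn at the level of 3 reads, and for the other 8 genes the red point lies to the right.

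Interleukin 1 comes in an alpha form, kept in the cell and released on damage, and a beta form, secreted after cleavage by caspase-1. IL1A (ENSG00000115008, chromosome 2, 112773915 to 112784590, minus strand, GRCh38) stood at 0.403 FPKM with DMSO and 5.61 FPKM with JNJ-7706621, on 20 and 272 reads. IL1B (ENSG00000125538, chromosome 2, 112829751 to 112836903, minus strand) stood at 0.0569 and 1.33 FPKM, on 4 and 91 reads. The IL1A level was the higher of the pair in both libraries. The FPKM ratio was 13.9 (8.85 to 23.2) for IL1A and 23.3 (8.80 to 87.4) for IL1B, and these intervals overlap.

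IL6 and LIF belong to the cytokines that signal through the receptor chain gp130. IL6 (ENSG00000136244, chromosome 7, 22725884 to 22732002, plus strand), which drives the acute phase response, stood at 0.0620 FPKM with DMSO and 1.04 FPKM with JNJ-7706621, on 3 and 49 reads. Its ratio of 16.7 has a wide interval, from 5.40 to 83.9. Exons of AC073072.1 and STEAP1B overlap 20.7% of its exon length, of which AC073072.1 had 0 reads in both libraries and STEAP1B had 1 and 6. LIF (ENSG00000128342, chromosome 22, 30240447 to 30246851, minus strand), which maintains stem cells and is made by many tumours, was the most abundant of the 10 in DMSO, at 23.0 FPKM on 2077 reads, and stood at 25.6 FPKM on 2260 reads in JNJ-7706621. Its ratio was 1.11 (1.05 to 1.18), the smallest of the 9 with reads. Exons of AC004264.1 and LIF-AS1 overlap 6.73% of the LIF exon length, and AC004264.1, on the opposite strand, stood at 9.48 and 13.3 FPKM, a ratio of 1.40 (1.15 to 1.71). Whether counting used strand is not given in the sources used here.

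Colony-stimulating factors make blood cell precursors grow and mature. CSF3 (ENSG00000108342, chromosome 17, 40015361 to 40017813, plus strand), the granulocyte factor, stood at 0.732 FPKM with DMSO and 7.19 FPKM with JNJ-7706621, on 38 and 364 reads, a ratio of 9.81 (7.02 to 14.1). CSF2 (ENSG00000164400, chromosome 5, 132073790 to 132076170, plus strand), the granulocyte and macrophage factor, had 0 reads in both libraries. A count of 0 allows up to 0.163 FPKM with DMSO and 0.167 FPKM with JNJ-7706621, so no ratio is given and its expression was not detectable at this depth.

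CC chemokines attract white blood cells. CCL2 (ENSG00000108691, chromosome 17, 34255218 to 34257203, plus strand), which attracts monocytes, stood at 3.55 FPKM on 165 reads with DMSO, below LIF, and at 30.1 FPKM on 1362 reads with JNJ-7706621, the highest level of the 10. Its ratio was 8.46 (7.19 to 10.001), the interval being narrow because of the reads. CCL20 (ENSG00000115009, chromosome 2, 227805739 to 227817564, plus strand), which attracts dendritic cells and T helper 17 cells through CCR6, stood at 2.82 and 13.4 FPKM, on 105 and 488 reads. The CCL20 ratio, 4.76 (3.85 to 5.94), lay below those of CCL2, CSF3, IL32, IL1A and IL1B without overlap of the intervals, and overlapped those of IL6 and TNF.

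IL32 and TNF remain. IL32 (ENSG00000008517, chromosome 16, 3065297 to 3082192, plus strand), a cytokine with many splice forms that stimulates production of TNF and other cytokines, stood at 0.467 FPKM with DMSO and 4.32 FPKM with JNJ-7706621, on 35 and 316 reads. Its ratio was 9.25 (6.51 to 13.5). TNF (ENSG00000232810, chromosome 6, 31575567 to 31578336, plus strand), a central trigger of inflammation, stood at 0.102 and 0.653 FPKM, on 4 and 25 reads. Its ratio was 6.403 (2.21 to 25.3). TNF was the least abundant of the 9 detected genes in the JNJ-7706621 library.

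**Figure D2:**
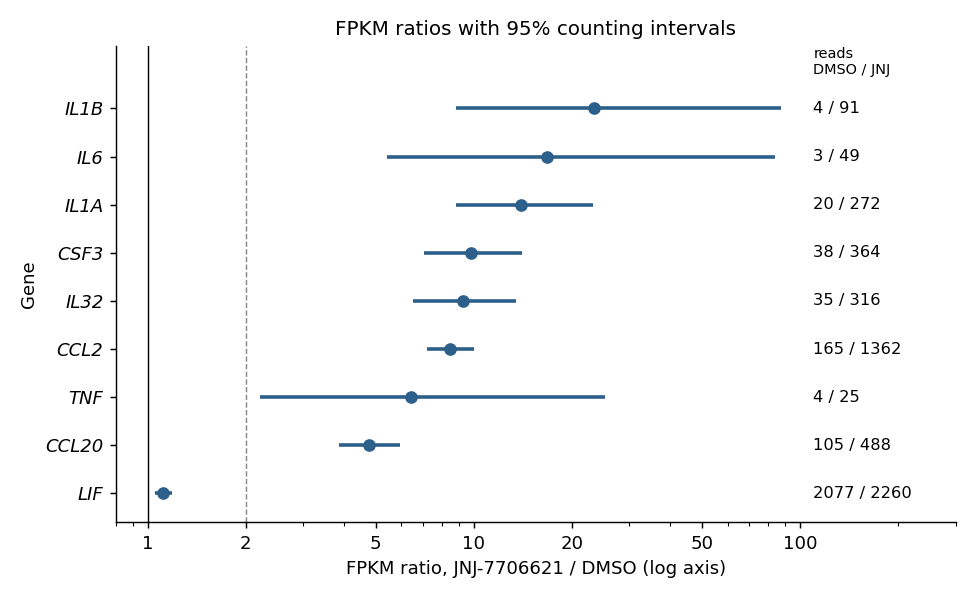
FPKM ratio of JNJ-7706621 to DMSO (log axis) for the 9 genes with reads, points with 95% counting intervals, the reads of each library at the right, a solid line at a ratio of 1 and a dashed line at 2. All intervals but that of LIF (1.05 to 1.18) lie above 2, and those of IL1B, IL6 and TNF, with 3 or 4 reads in DMSO, are the widest.

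The order of the genes by level differed between the libraries. In DMSO the order was LIF, CCL2, CCL20, CSF3, IL32, IL1A, TNF, IL6 and IL1B, and the level intervals separated only LIF from CCL2 and CCL20 from CSF3 among neighbours in this order. In JNJ-7706621 it was CCL2, LIF, CCL20, CSF3, IL1A, IL32, IL1B, IL6 and TNF, with overlap only between IL1B and IL6 and between IL6 and TNF. LIF held 73.7% of the summed level of the 10 genes in DMSO (31.1 FPKM) and 28.7% in JNJ-7706621 (89.2 FPKM). Without LIF the sum was 8.19 FPKM with DMSO and 63.6 FPKM with JNJ-7706621. The order of the ratios was less firm than that of the JNJ-7706621 levels. Of the 36 pairs among 9 genes, 23 had overlapping ratio intervals, and apart from CCL20 and LIF no neighbours in the order of ratios were separated.

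On the scale of log2(FPKM + 1), and among genes with a mean of at least 1 FPKM over both libraries, a gene is here called higher with a difference of at least 1 and lower with a difference of at most -1. Of the 10 genes 6 reached that mean, and 5 of them were called higher, CCL2 with a log2 difference of 2.77, CSF3 and IL1A with 2.24, CCL20 with 1.92 and IL32 with 1.86. LIF, at 0.15, was within these limits and 0 were called lower. Of all 13241 genes with that mean, 2.39% were called higher and 1.36% lower. IL1B, IL6 and TNF, with means of 0.691, 0.550 and 0.377 FPKM, and CSF2 were below the mean required. Without that requirement IL1B, with a difference of 1.14, lay above 1, and IL6 and TNF, at 0.94 and 0.58, lay below 1 although their FPKM ratios were larger than that of CCL20, because the pseudocount damps low values.

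The median log2 difference over the 10 genes was 1.498, against 0.00 over the 10167 protein-coding genes with a mean of at least 1 FPKM. By counting error alone, 9 of 10 genes had a ratio interval above 1, which held for 21.7% of the 27801 genes with recovered reads, and 8 of 10 had an interval wholly above 2, a limit taken after the values were seen, which held for 3.43% of 15756 protein-coding genes. The genes were chosen with this contrast in view, so these shares are given beside the counts and nothing is read from them.

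**Figure D3:**
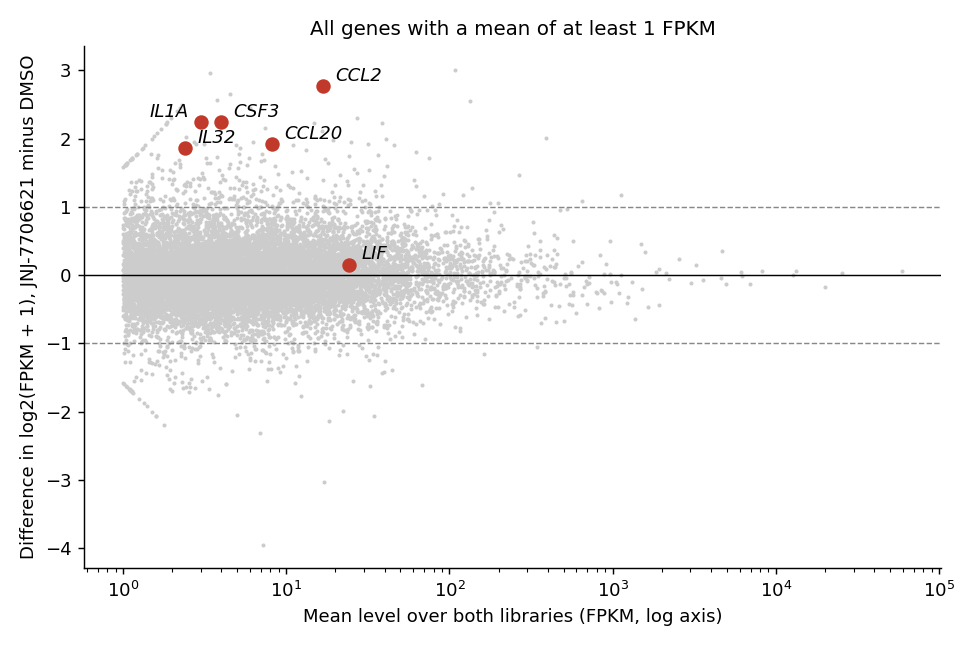
Difference in log2(FPKM + 1), JNJ-7706621 minus DMSO, against the mean level in FPKM (log axis) for the 13241 genes with a mean of at least 1 FPKM (grey), with the 6 cytokine genes that reach this mean in red and dashed lines at 1 and -1. CCL2, CSF3, IL1A, CCL20 and IL32 lie between 1.86 and 2.77, and LIF lies at 0.15.

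The genes with the ratios most like these are given next, where likeness can only mean the size of the FPKM ratio because there are 2 libraries. Among 10167 protein-coding genes with a mean of at least 1 FPKM, the ratio of IL1A ranked 1, CSF3 5, IL32 7, CCL2 10, CCL20 39 and LIF 3602. Among the 10 other genes with the highest ratios were C6orf58, PTX3, PNMA2, ANKRD1, LTB, TNFRSF9, CXCL8, G0S2 and MAP7D2, from 13.4 for C6orf58 to 7.54 for MAP7D2. PTX3, a secreted pattern recognition protein of inflammation, stood at 0.454 and 5.82 FPKM, a ratio of 12.8 (8.12 to 21.3). TNFRSF9, the receptor 4-1BB of activated lymphocytes, stood at 0.595 and 5.00 FPKM, a ratio of 8.42 (6.74 to 10.6). The neutrophil chemokine gene CXCL8, from the neighbouring CXC family, had a ratio of 8.36 (7.87 to 8.88) at far higher levels, 23.2 and 194 FPKM. Of the reference genes, GAPDH had a ratio of 0.965 (0.958 to 0.973) and ACTB of 0.746 (0.736 to 0.756).

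The AU-rich pentamer AUUUA was counted in the longest annotated 3′ untranslated region of each gene, since the series concerns an AU-rich binding protein. It was present in 9 of the 10 genes, and in 67.6% of 19127 protein-coding genes. At least 5 pentamers per 1000 bases were present in 6 of the 10, IL1B, IL6, CSF2, CSF3, CCL20 and TNF, and in 8.67% of all protein-coding genes. The longer nonamer UUAUUUAUU, whose matches contain the pentamer, was present in IL1B, CSF2, LIF and TNF, 4 of 10, and in 8.21% of all. A match is a description of the letters, not a binding site. The ratio intervals of TNF, IL1B, CSF3 and IL1A overlap, that of LIF lies below them, and CSF2 has no ratio. For these genes the 30-base windows richest in pentamers are shown, with the pentamers in capitals. Those of IL6, CCL2, CCL20 and IL32 are not shown.
TNF: auuAUUUAuuAUUUAUUUAuuAUUUAUUUA
CSF2: uuuuaaaauAUUUAUUUAUUUAUUUAUUUA
IL1B: ugagcaaccgcuucccuAUUUAUUUAUUUA
CSF3: ucccauguAUUUAucucuAUUUAauAUUUA
IL1A: uAUUUAuauauguAUUUAuaaauauAUUUA
LIF: AUUUAuucaaugucauAUUUAaaauAUUUA

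TNF and CSF2 carry runs of overlapping pentamers, 5 in each window, of 9 and 8 in the whole region. LIF has 7 pentamers over 3204 bases, 2.18 per 1000 bases, and CCL2 has 1 over 473 bases, 2.11 per 1000 bases. These 2 genes are alike in density only, since LIF also has 2 nonamers and CCL2 has 0. Their FPKM ratios were 1.11 and 8.46. IL32 has 0 pentamers over 464 bases and a ratio of 9.25, and IL6, the densest gene with a ratio, has 13.99 per 1000 bases and a ratio of 16.7. With 9 genes chosen for this contrast, no association between density and ratio was computed. The part of AU-rich elements in the ratios was not tested. HNRNPD, which encodes AUF1, stood at 39.2 and 30.3 FPKM, a ratio of 0.774 (0.745 to 0.803). AUF1 binding and mRNA decay were not measured in these libraries.

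**Figure D4:**
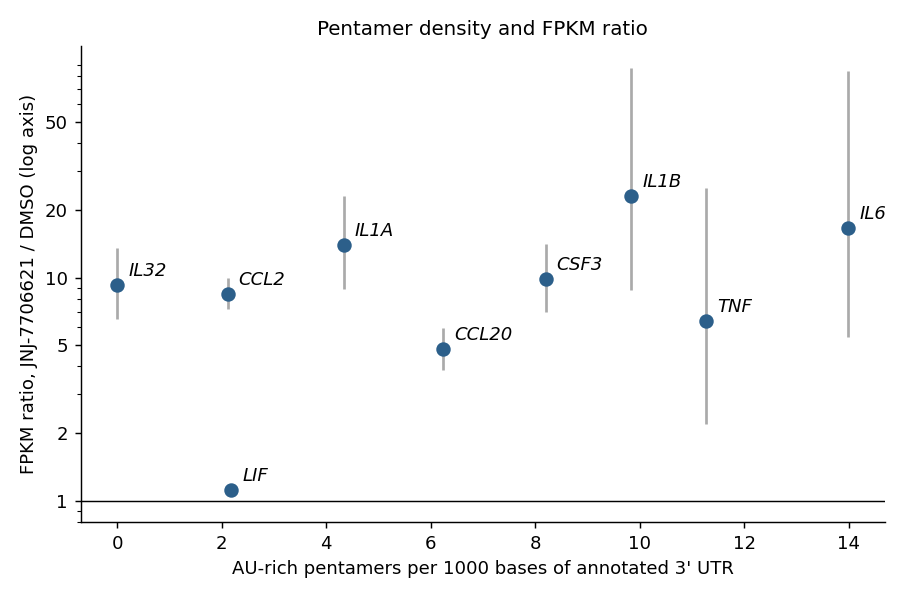
FPKM ratio of JNJ-7706621 to DMSO (log axis, 95% counting intervals) against the number of AUUUA pentamers per 1000 bases of annotated 3′ untranslated region for the 9 genes with reads. IL32 with 0 pentamers has a ratio of 9.25, and LIF and CCL2, with 2.18 and 2.11 pentamers per 1000 bases, have ratios of 1.11 and 8.46. No association was computed from these 9 genes.

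RefSeq promoter entries (GRCh38.p14) were found for 7 of the 10 genes, IL1A, IL1B, IL6, CSF2, CCL20, IL32 and TNF, with 2 entries each for IL1A and IL32. The 250 bases before the RefSeq start of each entry, which can differ from the gene start given above, were searched on both strands for the kappa B consensus, the DNA motif of NF-kB. It was found in 3 of the 9 entries, those of CCL20 and IL6 and 1 of IL32, and in 9.96% of all 35116 entries. The AP-1 motif TGAGTCA, searched on both strands, was found in both overlapping entries of IL1A and in 4.20% of all entries. Every one of the 7 genes that had reads stood higher in the JNJ-7706621 library, so a higher level does not set apart those with a match. The 3 promoters with a kappa B match are shown 5′ to 3′ on the strand of the gene, with the match in capitals.
CCL20 (chr2:227813592-227813841, plus strand): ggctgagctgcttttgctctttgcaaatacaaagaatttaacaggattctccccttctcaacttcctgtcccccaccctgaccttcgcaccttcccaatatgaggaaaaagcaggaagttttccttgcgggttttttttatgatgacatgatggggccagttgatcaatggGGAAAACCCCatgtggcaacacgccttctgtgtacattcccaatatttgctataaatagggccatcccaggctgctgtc
IL6 (chr7:22726950-22727199, plus strand): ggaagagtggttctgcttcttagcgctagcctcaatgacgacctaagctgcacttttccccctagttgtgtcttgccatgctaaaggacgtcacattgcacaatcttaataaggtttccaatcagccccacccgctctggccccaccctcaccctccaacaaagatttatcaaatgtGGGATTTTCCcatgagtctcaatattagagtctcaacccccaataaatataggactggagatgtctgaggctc
IL32 (chr16:3065153-3065402, plus strand): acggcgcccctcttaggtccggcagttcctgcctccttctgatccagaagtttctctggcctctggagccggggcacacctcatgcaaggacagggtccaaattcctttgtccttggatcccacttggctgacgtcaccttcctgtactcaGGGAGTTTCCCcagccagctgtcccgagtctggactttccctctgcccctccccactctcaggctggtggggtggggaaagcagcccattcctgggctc

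The CCL20 match begins 79 bases before the start and lies on the opposite strand. The IL6 match begins 73 bases before the start, on the strand of the gene. In IL32 the motif matches on both strands, at 99 and 98 bases before the start, and the overlapping matches form 1 stretch. The entries of IL1A, IL1B and TNF, which also stood higher, hold no such letters in this window, and nothing about the factor follows from that. Binding was not measured.

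Nearly all measured genes next to the 10 on the chromosome lay under the limit of 1, as did nearly all measured genes of the table. Within 100000 bases of the starts, 114 other genes were listed, 29 had a mean of at least 1 FPKM, and 1 of these was called higher and 0 lower, with a median log2 difference of -0.04. Over all 13241 genes with that mean, 2.39% were called higher and 1.36% lower. The count of called neighbours is near these shares, and nothing is read from it. The 1 neighbour called higher was LTB, which encodes lymphotoxin beta and begins 6955 bases from the start of TNF. It stood at 0.502 FPKM with DMSO and 4.37 FPKM with JNJ-7706621, on 18 and 153 reads, a ratio of 8.71 (5.33 to 15.1). CKAP2L, whose start lies 19913 bases from that of IL1A, stood at 3.13 and 3.02 FPKM. Among the CC chemokine genes near CCL2, CCL7 had 1 and 2 reads, CCL8 0 and 3, and CCL11 0 in both. IL3, next to CSF2, and OSM, next to LIF, had 0 reads in both libraries. Of the genes near CSF3, PSMD3 stood at 24.4 and 23.6 FPKM and MED24 at 7.93 and 10.9 FPKM. TNFRSF12A, near IL32, stood at 24.2 and 42.4 FPKM, a log2 difference of 0.78 that is not past the limit of 1. MICB, near TNF, stood at 1.45 and 3.30 FPKM, a log2 difference of 0.81. In the other direction, GPANK1, near TNF, and HCFC1R1, near IL32, had log2 differences of -0.64 and -0.62. SLC19A3, near CCL20 and under the required mean, had 12 and 105 reads, a ratio of 8.96 (4.92 to 17.9), and was named after its values were seen.

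To place the cytokines in their pathways, 197 further genes were listed by role in 14 groups, of which 85 had a mean of at least 1 FPKM. Of these 9 were called higher (IRAK2, EBI3, CSF1, CSF2RA, CCL28, LTB, NFKB2, FOSL1 and JUN) and 2 lower (KITLG and JUND). Over all 13241 genes with that mean, the shares were 2.39% higher and 1.36% lower. In the plot by role, most groups spread around 0.

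**Figure D5:**
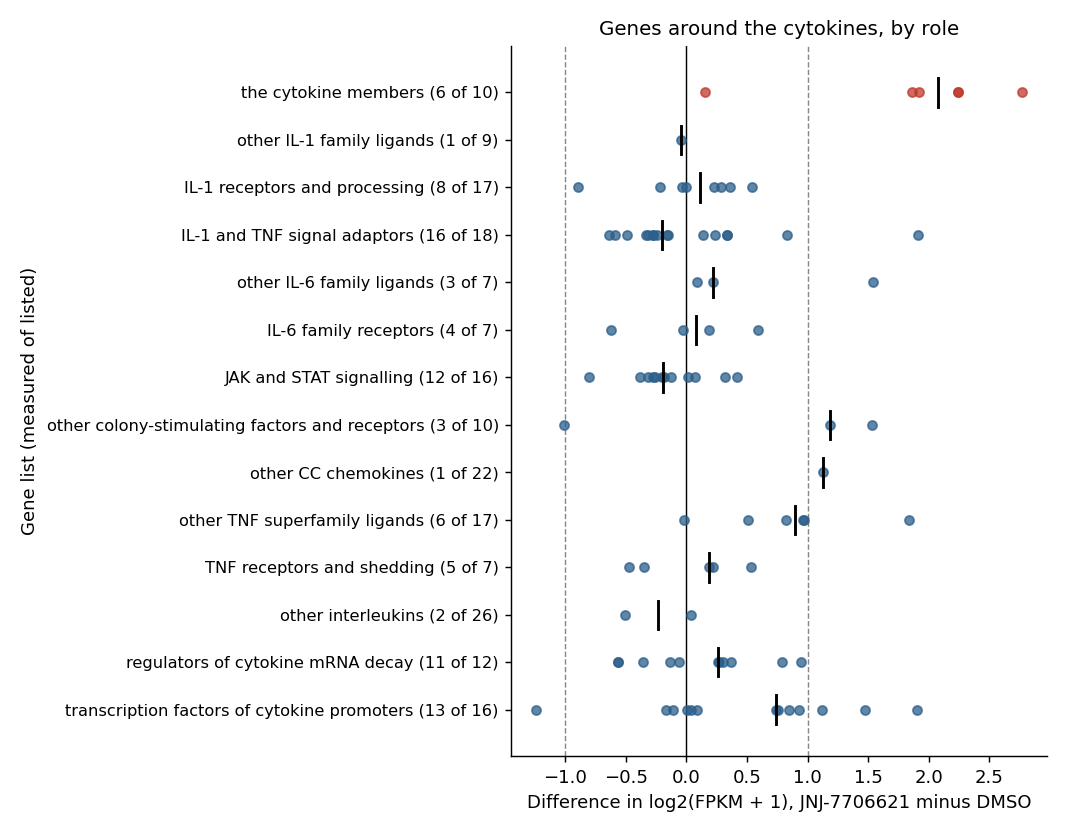
Difference in log2(FPKM + 1), JNJ-7706621 minus DMSO, for genes with a mean of at least 1 FPKM (points), by role, with the median of each group as a black bar and dashed lines at 1 and -1. The cytokine genes (red) have a median of 2.08, and the receptor, adaptor and JAK and STAT groups have medians between -0.20 and 0.19.

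Other ligands of the interleukin 1 and interleukin 6 families mostly had few reads or nearly equal levels, while several TNF superfamily ligands had higher levels with JNJ-7706621. Of 9 other interleukin 1 family ligands only IL18 had a mean of at least 1 FPKM, at 79.3 FPKM with DMSO and 76.7 FPKM with JNJ-7706621, and 6 had no reads. The natural antagonist IL1RN had 0 and 5 reads. Of 7 other interleukin 6 family ligands 3 were measured and 1 was called higher, EBI3, a subunit of interleukins 27 and 35, at 0.511 and 3.38 FPKM, a ratio of 6.63 (3.83 to 12.3). IL11 and CLCF1 had ratios of 1.35 (0.944 to 1.95) and 1.07 (0.938 to 1.22). Of 17 other TNF superfamily ligands 6 were measured, 1 was called higher (LTB) and 0 lower. TNFSF9, TNFSF15, CD70 and TNFSF13 had log2 differences of 0.97, 0.97, 0.82 and 0.50, under the limit, and the group median was 0.89. The FPKM ratio was 3.10 (2.57 to 3.75) for TNFSF15, 3.07 (1.85 to 5.30) for CD70 and 2.13 (1.81 to 2.52) for TNFSF9, and TNFSF18 had 0 reads in DMSO and 24 in JNJ-7706621. Of 26 other interleukins 2 were measured, IL15 at 5.93 and 6.12 FPKM and IL17D at 2.79 and 1.67 FPKM, and 15 had no reads.

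The other CC chemokines were near absence. Of 22 genes 13 had no reads in either library and 1 was measured and called higher, the epithelial chemokine gene CCL28, at 0.567 and 2.41 FPKM on 60 and 249 reads. Named after their values were seen, CCL5, CCL22 and CCL26 had 0 reads in DMSO and 21, 18 and 10 in JNJ-7706621. Set against 3 reads, the floor used for a library at 0, these genes were 7.17-fold, 6.15-fold and 3.42-fold higher by these reads. With the counting error of the reads included, the intervals of the ratios begin at 5.34, 4.50 and 2.30. CCL17 went the other way, with 12 reads in DMSO and 0 in JNJ-7706621, 3.90-fold lower against the same floor, and its ratio interval ends at 0.369. Of the 13 CC chemokine receptors 0 had a mean of at least 1 FPKM and 8 had no reads.

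Among colony-stimulating factors and receptors 3 of 10 were measured, of which 2 were called higher and 1 lower. CSF1, the macrophage growth factor, stood at 5.87 and 18.9 FPKM, a ratio of 3.21 (2.95 to 3.50). CSF2RA, a receptor chain for the CSF2 product, stood at 1.85 and 5.47 FPKM, a ratio of 2.95 (2.47 to 3.54). KITLG, the ligand of the receptor KIT, stood at 11.6 and 5.28 FPKM, a ratio of 0.454 (0.416 to 0.495). CSF3R, the receptor for the CSF3 product, had 0 and 2 reads.

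No measured receptor or processing gene of interleukin 1, the interleukin 6 family or TNF passed the limit of 1, although some had ratio intervals away from 1. Of 17 interleukin 1 receptor and processing genes 8 were measured and 0 passed the limit in either direction, with a median of 0.11. SIGIRR, an inhibitory receptor of the family, had a log2 difference of -0.90 and a ratio of 0.460 (0.390 to 0.540), the decoy receptor gene IL1R2 of 0.54, and CAPN2 and CAPN1, calpains that cleave the IL1A precursor, of 0.36 and 0.29. CASP4, an inflammatory caspase, had 0.23. IL1R1 itself stood at 1.64 FPKM in both libraries. Of 7 interleukin 6 family receptors 4 were measured and 0 passed, with IL6ST, which encodes gp130, at 7.93 and 4.80 FPKM, IL6R at 1.21 and 2.32 FPKM, and OSMR at 18.1 and 20.8 FPKM. Of 7 genes of TNF receptors and shedding 5 were measured and 0 passed. TNFRSF1A, the main TNF receptor, stood at 55.6 and 43.5 FPKM, and ADAM17, the protease that releases TNF, at 6.44 and 7.48 FPKM. RHBDF2, ADAM10 and RHBDF1 had log2 differences of 0.53, -0.48 and 0.22. TNFRSF1B, under the required mean, rested on 8 and 82 reads, a ratio of 10.5 (5.09 to 25.1), and was named after its values were seen.

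Of 18 signal adaptors of interleukin 1 and TNF, 16 were measured, 1 was called higher and 0 lower, with a median of -0.20. The 1 was IRAK2, a kinase-like adaptor of the interleukin 1 receptor, at 4.04 FPKM with DMSO and 17.9 FPKM with JNJ-7706621, a ratio of 4.43 (3.93 to 5.02). BIRC3, an ubiquitin ligase of the TNF receptor complex, had a log2 difference of 0.83, and MYD88, BIRC2 and MAP3K7 had -0.64, -0.59 and -0.49. Of 16 JAK and STAT signalling genes 12 were measured and 0 passed, with a median of -0.19. SOCS3, a feedback inhibitor of interleukin 6 signalling, stood at 3.24 and 1.43 FPKM, a log2 difference of -0.80 and a ratio of 0.440 (0.340 to 0.567). JAK1, PIAS1, STAT5A and PIAS3 had 0.42, -0.38, 0.32 and -0.32, and STAT3 stood at 18.9 and 19.9 FPKM.

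Of the measured transcription factors known from cytokine promoters, several stood higher, some were level and some stood lower. Of 16 listed 13 were measured, 10 of them above 0, and 3 were called higher and 1 lower, with a median of 0.74. Over all 13241 genes with a mean of at least 1 FPKM, 6573 were above 0, 2.39% were called higher and 1.36% lower. Of the 10 above 0, CEBPB, RELA and CEBPD had ratio intervals that include 1. REL, under the required mean and named after its values were seen, had a ratio of 0.569 (0.431 to 0.747). FOSL1 and JUN, which join in AP-1, had levels of 1.496 and 8.31 FPKM (FOSL1) and of 2.46 and 6.50 FPKM (JUN). NFKB2, the p100 precursor of the NF-kB family, stood at 10.9 and 31.9 FPKM. JUND, another AP-1 member, stood at 45.7 and 18.7 FPKM, a ratio of 0.410 (0.377 to 0.444). JUNB had a log2 difference of 0.93, and RELA, the main activating subunit of NF-kB, stood at 12.2 and 12.5 FPKM. NFKBIZ, RELB and NFKB1 had log2 differences of 0.84, 0.75 and 0.74, and FOSL2 and ATF3 of -0.17 and -0.11.

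Of 12 regulators of cytokine mRNA decay 11 were measured and 0 passed the limit in either direction, with a median of 0.26. ZFP36L1 and ZC3H12A, which promote decay of cytokine mRNAs, had log2 differences of 0.95 and 0.79, ZFP36 of 0.36, and ZFP36L2 and TIA1 of -0.57 each. The group held members on both sides of 0, and its part in the cytokine differences was not tested.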

How the data were processed

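RNA sequencing values of 2 libraries were used, 1 per group, grouped by the treatment in the labels. The authors deposited FPKM values per gene, per the file headers. Genome build hg38 and edgeR are named in the submitters' processing notes, without a role. The sources used here do not name the aligner, counter, annotation release or strand setting. Of 4 value columns, 2 matched the sample labels. The other 2 were not used. Their names resemble second libraries of both groups, which no label used here settles.

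Reads were recovered as FPKM times exon length times library total, whole within 1e-06 reads, with GENCODE release 29 exon lengths for 17323 of 27801 genes and otherwise the nearest length within 0.25 to 4 times the annotated length. They served for intervals and floors and added up to 99.7% of each total. No count test was run. Ratio intervals are exact Clopper-Pearson intervals, conditional on the reads of both libraries, and level intervals are exact Poisson intervals. A library at 0 was set at a floor of 3 reads. Without molecular identifiers, reads cannot be taken as independent molecules.

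Genes with a mean of at least 1 FPKM and a difference of at least 1 in log2(FPKM + 1) were called. The pseudocount of 1 understates differences of low genes. Where a symbol had several entries, the entry with the highest mean was taken. The genes, gene lists and limits were chosen with earlier results of these data known. The text names all 10 cytokine genes, up to 5 genes per list with the largest differences, called neighbours within 100000 bases, the 10 protein-coding genes with the highest ratios, HNRNPD, ACTB and GAPDH. Some genes that this rule selects are not reported here. Other genes were named after their values were seen. The calculations were tested on simulated reads of genes with a mean of at least 1 FPKM and known exon lengths. Genes below that mean and the search for exon lengths were not covered. Python 3.11.15, numpy 2.4.6, pandas 2.3.3, scipy 1.17.1 and matplotlib 3.10.9 were used.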

Additional observations from a re-analysis of the deposited data

How the results depend on the processing

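No paired analysis was possible because only 1 library per group could be mapped to a sample label, and none could be left out. In every one of the 40 values computed for single cytokine genes under 4 alternatives (pseudocounts of 0.1 and 0.5, rescaling to a sum of 1000000, and a median log2 ratio of 0 over all genes), the sign was kept or the value was 0, as for CSF2. This was fixed in advance. A pseudocount cannot change a sign, and both rescalings were too small to do so. In size, 32 of the 40 values lay within the counting interval of the main value and 8 lay outside it. The number called higher was 5, and 2 with a required mean of 5 FPKM (CCL2 and CCL20), because fewer genes enter; it was 7 after rescaling and 6 without the required mean. The median over the 10 genes was 2.89 with a pseudocount of 0.1, since low values are damped less. The 9 intervals above 1 were also above 1 at 99%. Pathway genes called higher, 9, numbered 14 (and 4 lower, against 2) with a pseudocount of 0.1 and 3 with a mean of 5 FPKM. Called neighbours, 1, numbered 3 and 2 with pseudocounts of 0.1 and 0.5, 2 after rescaling, 0 with a mean of 5 FPKM, and 3 within 500000 bases. Over all genes, 608 were called higher and 409 lower with a pseudocount of 0.1, 462 and 274 with 0.5, 714 and 478 after rescaling and 145 and 75 with a mean of 5 FPKM, against 316 and 180. Depth limits TNF, IL6 and IL1B, with 3 or 4 reads in DMSO, and CSF2, with 0.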
